A study of Homo sapiens with 4 samples.

Results

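The small nucleolar RNA host genes described here are 10 noncoding genes, SNHG1, SNHG5, SNHG6, SNHG8, SNHG12, SNHG15, SNHG16, GAS5, ZFAS1 and EPB41L4A-AS1, chosen by symbol out of the 60725 genes of a count table. All 10 passed the filter on low counts, as did 15356 genes in all. RNA was measured in hTERT-RPE1 cells, a telomerase-immortalised line from human retinal pigment epithelium, here carrying the SunTag system. Scramble cells (2 libraries) received the siRNA Silencer Select Negative Control No. 2, and TOP2BKD cells (2 libraries) received the Dharmacon ON-TARGETplus SMARTpool against TOP2B, the gene of DNA topoisomerase 2 beta. Both groups were given 10 nM siRNA, transfected again after 48 h and harvested 72 h later, on day 5. The question of the comparison is how depletion of this topoisomerase changed gene expression. The reagents differ between the groups in maker and design as well as in target, so an effect of the target and one of the reagent cannot be told apart.

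Small nucleolar RNAs (snoRNAs) guide the chemical modification of ribosomal RNA. The C/D class carries short boxes C and D, binds fibrillarin and directs 2′-O-methylation, while the H/ACA class ends in an ACA box, binds dyskerin and directs pseudouridylation. Most human snoRNAs lie in introns of a host gene and are released from the spliced-out intron. In the noncoding hosts the spliced exons have little conserved sequence of their own, many start with a pyrimidine tract like that of ribosomal protein genes (a terminal oligopyrimidine, or TOP, start), and the spliced RNA is degraded by nonsense-mediated decay (NMD) when it is translated. The polyA RNA libraries read this spliced RNA and not the mature snoRNA, which has no polyA tail.

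The hosts carry 36 annotated snoRNAs in RefSeq (GRCh38.p14), of which 28 are C/D, 7 are H/ACA and 1 was not classed. GAS5 holds 11 and SNHG1 holds 9 of them, SNHG12 holds 4, SNHG16 and ZFAS1 hold 3 each, SNHG5 holds 2, and the other hosts hold 1 each. The 3 snoRNAs of SNHG16 belong to one family and are printed because their host gave the largest change among the 10 genes. Capitals mark the longest run of bases that all 3 share, 17 bases that hold the letters CTGA near their 3′ end. This CTGA lies inside the snoRNA, and another CTGA, read as box D, stands in the last 15 bases of each. In C/D snoRNAs the bases just upstream of box D or of an internal copy of it can pair with the RNA to be methylated. The sequences were read from the genome at the RefSeq positions and are written 5′ to 3′.
SNORD1A (chr17:76561633-76561706, plus strand): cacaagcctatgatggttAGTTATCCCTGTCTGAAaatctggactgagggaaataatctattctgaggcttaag
SNORD1B (chr17:76561108-76561193, plus strand): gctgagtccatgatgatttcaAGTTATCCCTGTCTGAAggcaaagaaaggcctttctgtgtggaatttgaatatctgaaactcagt
SNORD1C (chr17:76558790-76558869, plus strand): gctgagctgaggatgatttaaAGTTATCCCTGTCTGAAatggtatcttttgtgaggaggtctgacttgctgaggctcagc

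The 8 C/D snoRNAs of SNHG1, the other host that passed the test, are unlike one another, with no run longer than 4 bases common to all of them. Of those that hold both boxes, the one nearest the 5′ end of the host and the one nearest its 3′ end are given as examples. Capitals mark box C (TGATGA, searched in the first 20 bases) and box D (CTGA, searched in the last 15 bases).
SNORD25 (chr11:62855565-62855631, minus strand): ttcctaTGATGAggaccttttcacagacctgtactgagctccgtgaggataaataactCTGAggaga
SNORD31 (chr11:62853326-62853393, minus strand): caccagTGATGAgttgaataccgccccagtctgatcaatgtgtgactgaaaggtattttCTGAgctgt

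Of the 27 C/D snoRNAs read, 25 held CTGA in the last 15 bases and 16 held TGATGA in the first 20 bases, on the strand of the host. The common run was 12 bases for the pair in SNHG5, 9 bases for the 3 in ZFAS1 and 5 bases for the 10 in GAS5. A single H/ACA snoRNA is shown for contrast, from SNHG8, with the ACA near its 3′ end in capitals, which 6 of the 7 H/ACA snoRNAs held in their last 6 bases.
SNORA24 (chr4:118279190-118279320, plus strand): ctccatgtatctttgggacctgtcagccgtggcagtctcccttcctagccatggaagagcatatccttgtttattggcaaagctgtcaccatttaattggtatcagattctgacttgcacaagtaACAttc

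The start of the host RNA was examined in the RefSeq promoter sequences for 8 of the 10 genes. No start was read for SNHG6 or SNHG15, so the shares given below leave these genes out. The sequence of SNORD87, hosted by SNHG6, was not read either. Windows from 10 bases before the annotated start to 30 bases after it are printed for the 6 genes that hold a run of at least 5 pyrimidines, with each such run in capitals.
SNHG16 (chr17:76557754-76557793, plus strand): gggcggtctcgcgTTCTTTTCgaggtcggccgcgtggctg
SNHG1 (chr11:62855856-62855895, minus strand): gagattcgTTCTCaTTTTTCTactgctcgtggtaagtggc
SNHG12 (chr1:28581844-28581883, minus strand): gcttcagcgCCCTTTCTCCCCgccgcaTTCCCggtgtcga
SNHG5 (chr6:85678704-85678743, minus strand): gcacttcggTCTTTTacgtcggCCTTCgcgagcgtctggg
ZFAS1 (chr20:49278632-49278671, plus strand): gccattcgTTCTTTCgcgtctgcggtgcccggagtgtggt
SNHG8 (chr4:118278752-118278791, plus strand): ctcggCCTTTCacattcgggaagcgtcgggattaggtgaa

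Runs of at least 5 pyrimidines stood in 6 of the 8 windows of host genes (75.0%) and in 55.7% of the same windows of all 35116 RefSeq promoters, so that the run by itself is common. The windows without such a run were those of GAS5 and EPB41L4A-AS1. For GAS5 the RefSeq start that was read, base 173869045, lies upstream of the 5′ end of the gene in GENCODE, base 173868882. Its window is thus outside the GENCODE gene, and the shares of the 8 host genes include it. A stricter form, a C at the first base followed by 4 pyrimidines, was held by SNHG5, SNHG12 and ZFAS1. That is 37.5% of the 8 host genes, against 4.07% of all promoters. Among protein-coding hosts it was 58.3% of the 24 that were read, out of 33 listed. That list was written as one of TOP genes, so its share was set in part by the choice. In SNHG16 the run of 8 pyrimidines began 3 bases after the annotated start. The longest run was 12 bases, in SNHG12. These letters describe annotated starts, and starts were not measured in these cells.

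The libraries held between 20310259 and 23887013 counted reads. Levels are given as CPM, counts scaled to the size of the library with TMM factors. TOP2B itself had 154.9 and 143.5 CPM in scramble and 15.3 and 13.3 in TOP2BKD, and fell by 3.38 on the log2 scale (adjusted p = 5e-06, edgeR's quasi-likelihood test with Benjamini-Hochberg adjustment over all tested genes, as for every adjusted p below). The epithelial and mesenchymal markers KRT8 (854 to 1347 CPM) and VIM (938 to 1019 CPM) were abundant. The pigment epithelial genes RPE65 and TYR had no read in any library, while BEST1, also of pigment epithelium, had 0.614 to 0.992 CPM. PTPRC of blood cells stayed at or under 0.307 CPM. PECAM1 of endothelium had 0.248 to 1.002 CPM and COL1A1 of fibroblasts 4.65 to 7.41 CPM. The labels call the replicates separate samples of a group, and the p-values measure the spread among these 4 libraries.

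Following TOP2B knockdown, 2 of the 10 host genes passed an adjusted p of 0.05, SNHG16 and SNHG1, and both were higher in TOP2BKD. Over all tested genes 10.8% were called, and 6.66% were called as higher. The log2(fold change) was above 0 for 9 of the 10 genes, where 49.8% of all tested genes were above 0. The median was 0.26, against -0.0029 over all tested genes and 0.0971 over the 1738 tested long noncoding RNA genes. Of these long noncoding RNA genes, 57 were called higher and 15 lower. In 8 host genes both TOP2BKD libraries lay above both scramble libraries in CPM, in SNHG15 both lay below, and in EPB41L4A-AS1 the groups overlapped. Such a separation upwards was seen in 27.7% of all tested genes. The reads of the 10 genes together amounted to 435.1 and 463.2 unscaled CPM in scramble and to 529.3 and 569.6 in TOP2BKD. With bulk RNA, a change in RNA per cell and a change in the share of cells that express a gene cannot be told apart.

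**Figure D1:**
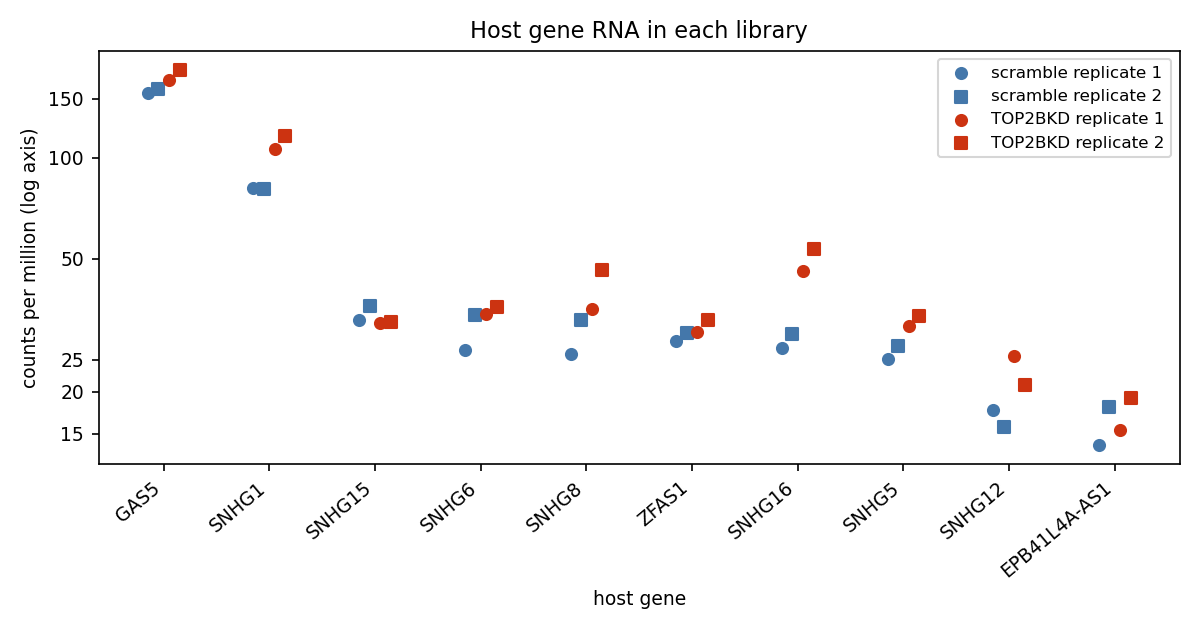
CPM on a log axis of each of the 10 host genes in the 4 libraries, with blue for scramble, red for TOP2BKD, circles for replicate 1 and squares for replicate 2. The red points of SNHG16 and SNHG1 lie well above the blue ones, those of SNHG15 lie below, and those of EPB41L4A-AS1 overlap them.

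Among hosts of C/D snoRNAs, SNHG16 (ENSG00000163597, chromosome 17 from 76557727 to 76670985 on the plus strand) carries SNORD1A, SNORD1B and SNORD1C. It had 27.0 and 29.9 CPM in scramble and 45.8 and 53.4 CPM in TOP2BKD. The lowest TOP2BKD library was far above the highest scramble library. The means were 28.4 ± 2.02 CPM and 49.6 ± 5.37 CPM (SD, n = 2). SNHG16 rose by 0.80 on the log2 scale, with a standard error of 0.13 (adjusted p = 0.00528), or by 74.2%. Its call was kept in each of the 11 alternative settings, with an adjusted p between 2.95e-07 and 0.00928 and a log2(fold change) between 0.67 and 0.91. Of the annotated exon bases of SNHG16, 28.5% also lie in a gene on the opposite strand, ENSG00000284526, which has no row in the table. Whether counting used strand is not given in the sources used here, so reads from the overlap could come from either strand.

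SNHG1 (ENSG00000255717, chromosome 11 from 62851978 to 62855953 on the minus strand) hosts SNORD22 and SNORD25 to SNORD31, most of which are guides of ribosomal RNA methylation. Its RNA was at 81.0 and 80.8 CPM in scramble and at 106.5 and 115.8 CPM in TOP2BKD. The scramble replicates were nearly equal, and both TOP2BKD libraries were higher. SNHG1 rose by 0.46 on the log2 scale, with a standard error of 0.12 (adjusted p = 0.0343), or by 37.4%. This call was lost when any 1 of the 4 libraries was left out, where the lone library of a group is assumed to vary like the other group. The adjusted p was then 0.138 without scramble replicate 1, 0.17 without scramble replicate 2, 0.0727 without TOP2BKD replicate 1 and 0.235 without TOP2BKD replicate 2, while the log2(fold change) stayed between 0.38 and 0.52.

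GAS5 (ENSG00000234741, chromosome 1 from 173858559 to 173868882 on the minus strand), named for its accumulation in growth-arrested cells, gave the most reads of the 10 genes. It had 155.5 and 160.1 CPM in scramble and 170.6 and 183.3 CPM in TOP2BKD. The groups did not overlap, but they lay close together. Its log2(fold change) of 0.17 had a 95% confidence interval from -0.11 to 0.44 (adjusted p = 0.434), and was 0.10 without TOP2BKD replicate 2. The share of GAS5 among reads of the 10 genes was 35.8% and 34.4% in scramble and 32.4% and 32.0% in TOP2BKD. The share of SNHG16 was 6.22% and 6.43% in scramble and 8.68% and 9.30% in TOP2BKD.

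SNHG5 (ENSG00000203875, chromosome 6 from 85650491 to 85678932 on the minus strand) hosts the pair SNORD50A and SNORD50B. Its values were 25.1 and 27.5 CPM in scramble and 31.5 and 33.8 CPM in TOP2BKD, without overlap. SNHG5 had a log2(fold change) of 0.31 with an interval from 0.03 to 0.59, which did not pass after adjustment over all genes (adjusted p = 0.145).

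ZFAS1 (ENSG00000177410, chromosome 20 from 49278178 to 49299600 on the plus strand), an RNA antisense to the start of ZNFX1, hosts SNORD12, SNORD12B and SNORD12C. It had 28.4 and 30.0 CPM in scramble and 30.2 and 32.8 CPM in TOP2BKD. The nearest libraries of the groups differed by less than the replicates of either group. The difference was 0.11 on the log2 scale, with an interval from -0.17 to 0.39 (adjusted p = 0.621). It was 0.04 without TOP2BKD replicate 2, 0.07 without scramble replicate 1 and 0.17 without TOP2BKD replicate 1.

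SNHG6 (ENSG00000245910) hosts SNORD87. It had 26.8 and 33.9 CPM in scramble and 34.1 and 35.9 CPM in TOP2BKD. The second scramble library was almost level with the first TOP2BKD library. SNHG6 had a log2(fold change) of 0.21, with an interval from -0.11 to 0.52 (adjusted p = 0.395). It was 0.05 without scramble replicate 1 and 0.39 without scramble replicate 2. Most of the annotated exon bases of SNHG6, 58.9%, overlap MCMDC2 on the other strand, for which between 9 and 13 reads were counted per library.

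SNHG12 (ENSG00000197989, chromosome 1 from 28578538 to 28583132 on the minus strand) hosts both classes, with SNORA16A, SNORA44, SNORA61 and SNORD99. It had 17.7 and 15.7 CPM in scramble and 25.6 and 21.0 CPM in TOP2BKD. All TOP2BKD values were higher than the scramble values, with the first replicate above the second in both groups. The estimate was 0.48 on the log2 scale with a standard error of 0.15, a value near that of SNHG1 with a wider error, and it missed the threshold (adjusted p = 0.0718). It passed when genes were not filtered on counts (adjusted p = 0.0419), with a replicate block (adjusted p = 0.000323) and without TOP2BKD replicate 2, which gave 0.60 (adjusted p = 0.0423). Without TOP2BKD replicate 1 it was 0.33 (adjusted p = 0.414).

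Among hosts of H/ACA snoRNAs alone, SNHG8 (ENSG00000269893, chromosome 4 from 118278703 to 118285316 on the plus strand) carries SNORA24. It had 25.9 and 32.9 CPM in scramble and 35.5 and 46.3 CPM in TOP2BKD. The groups did not overlap, and the replicates of each group were far apart, with the second above the first. The estimate was 0.47 on the log2 scale with a standard error of 0.16 (adjusted p = 0.0986), which passed with no filter on counts (adjusted p = 0.0269) and with a replicate block (adjusted p = 5.09e-05). Leaving out scramble replicate 2 or TOP2BKD replicate 1 gave 0.66 in either case (adjusted p = 0.0182 and 0.0118), and leaving out scramble replicate 1 or TOP2BKD replicate 2 gave 0.31 and 0.26 (adjusted p = 0.357 and 0.488). PRSS12, on the opposite strand, covers 37.6% of the annotated exon bases of SNHG8 and had 1032 and 757 reads in scramble and 1136 and 854 in TOP2BKD. Without strand, a read in this overlap could come from either gene, and how such reads were counted is not given in the sources used here.

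SNHG15 (ENSG00000232956, chromosome 7 from 44983019 to 44986961 on the minus strand), the host of SNORA9, had 32.7 and 36.1 CPM in scramble and 32.1 and 32.4 CPM in TOP2BKD. It was the only host of the 10 with both TOP2BKD libraries below the scramble libraries, by a small margin. Its log2(fold change) was -0.09, with an interval from -0.37 to 0.18 (adjusted p = 0.684). It was -0.02 without scramble replicate 2 and -0.16 without scramble replicate 1.

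EPB41L4A-AS1 (ENSG00000224032, chromosome 5 from 112160526 to 112164818 on the plus strand), the host of SNORA13, had 13.9 and 18.1 CPM in scramble and 15.4 and 19.1 CPM in TOP2BKD. The spread within each group was larger than the gap between the groups. Its log2(fold change) was 0.11, with an interval from -0.28 to 0.50 (adjusted p = 0.737), and it turned to -0.07 without scramble replicate 1 or without TOP2BKD replicate 2. Its partner EPB41L4A, on the other strand, covers 51.2% of its exon bases and had between 5 and 11 reads per library.

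**Figure D2:**
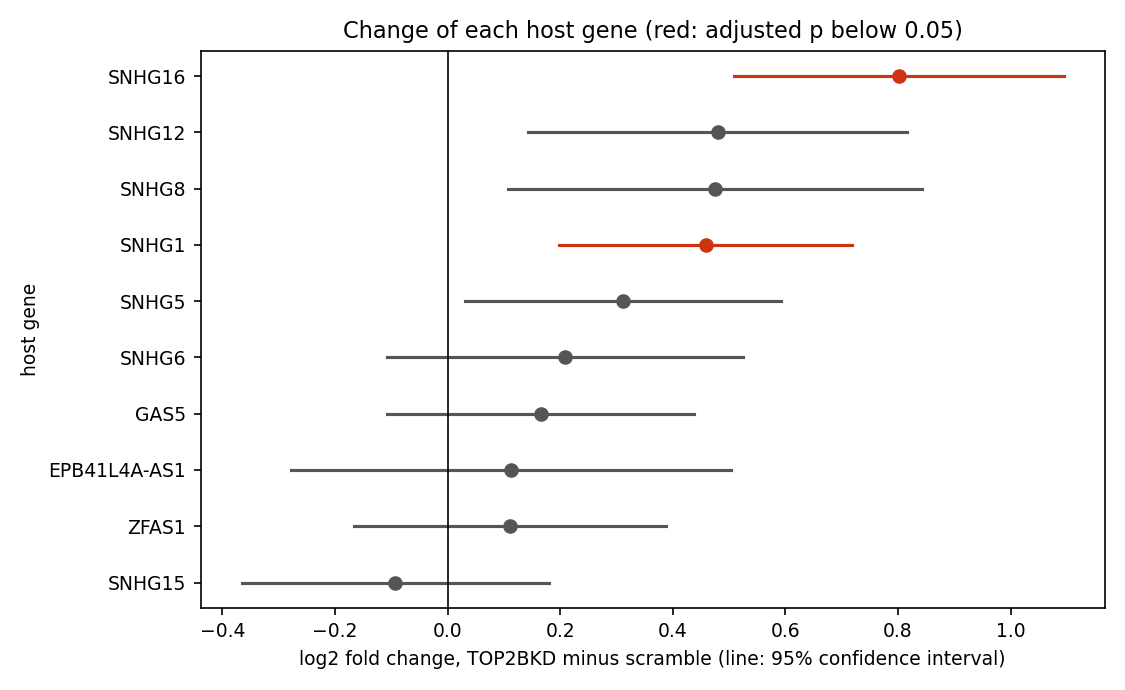
Log2 fold change (TOP2BKD minus scramble) of each host gene, as points with 95% confidence intervals from edgeR, in red where the adjusted p was below 0.05. The points run from 0.80 for SNHG16 to -0.09 for SNHG15, and the intervals of SNHG16, SNHG12, SNHG8, SNHG1 and SNHG5 lie above 0.

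The estimates of SNHG12, SNHG8 and SNHG1 lay between 0.46 and 0.48 and differed in their errors, so that the calls do not separate these 3 genes by size of change. Whether SNHG16 changed more than the others was not tested. The plot of settings shows these 4 genes together. SNHG16 was called in each setting, SNHG1 in each one that kept all 4 libraries, and SNHG12 and SNHG8 in some settings that kept or dropped libraries.

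**Figure D3:**
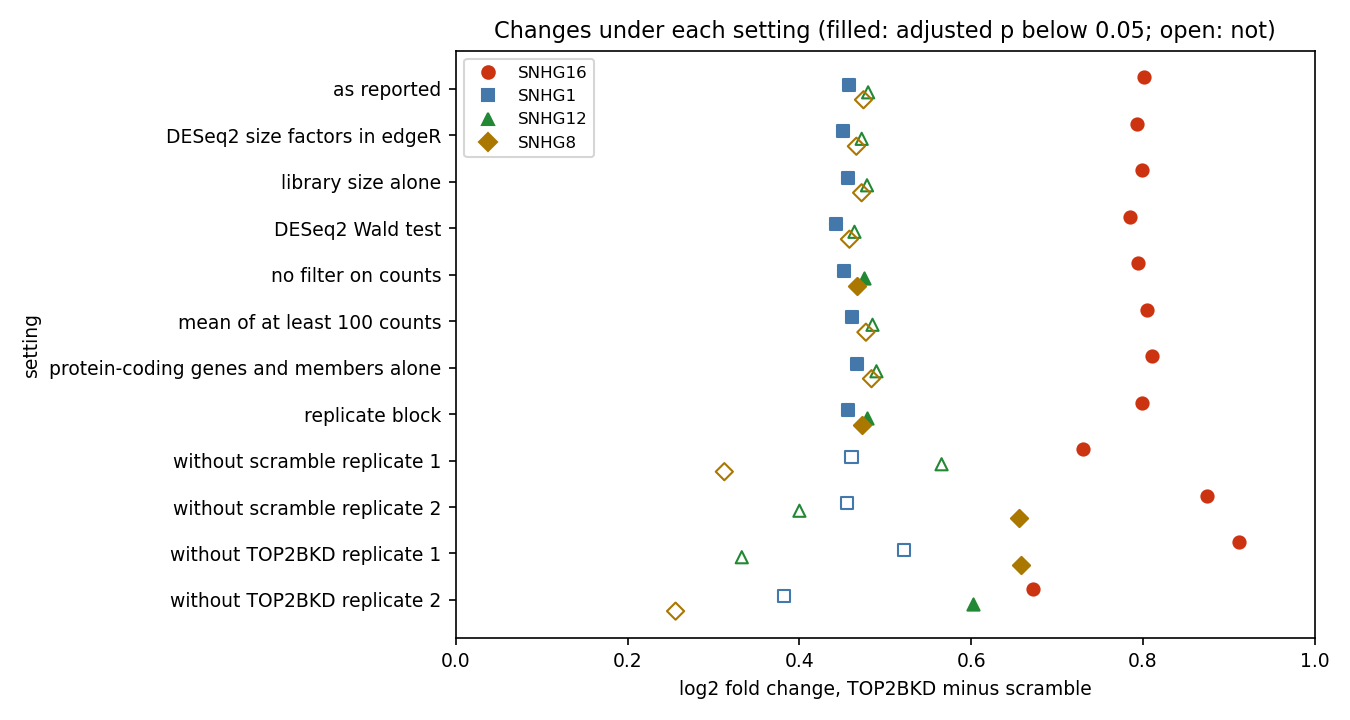
Log2 fold change of SNHG16, SNHG1, SNHG12 and SNHG8 (TOP2BKD minus scramble) as reported and under the 11 alternative settings, 1 row per setting, with filled symbols for an adjusted p below 0.05 and open ones otherwise. SNHG16 is filled in every row and lies between 0.67 and 0.91, and the squares of SNHG1 are open in the 4 rows that leave out a library.

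Levels were compared between genes as CPM per kb of annotated exon (GENCODE v44, all exons of a gene merged). By this measure GAS5 was the highest in scramble with 32.0 ± 0.67 CPM per kb, followed by SNHG1 with 20.3 ± 0.05, SNHG6 with 12.0 ± 1.99 and SNHG15 with 8.72 ± 0.61 (SD, n = 2), and the replicates of these 4 did not overlap. SNHG16 (4.92 ± 0.35), SNHG8 (4.45 ± 0.75), SNHG12 (3.92 ± 0.32), EPB41L4A-AS1 (3.72 ± 0.69) and ZFAS1 (3.51 ± 0.14) followed, with neighbours in this order closer than their spread. SNHG5 was lowest by this length, with 2.09 ± 0.13. In TOP2BKD, SNHG16 reached 8.58 ± 0.93 CPM per kb, above the 8.18 ± 0.04 of SNHG15 by less than its spread. Within a library, the highest level was on average 15.4 times the lowest over the scramble replicates. When the longest transcript gave the length, this ratio was 11.6, with EPB41L4A-AS1 the lowest in replicate 1 and SNHG5 in replicate 2. The first 4 genes kept their order by mean, followed by SNHG12, SNHG16, ZFAS1, SNHG8, SNHG5 (4.56 ± 0.29 CPM per kb) and EPB41L4A-AS1 (4.55 ± 0.84). The annotation is later than the one used for counting, and lengths that include exons added since understate these levels. For SNHG1, SNHG8, SNHG15 and EPB41L4A-AS1 the merged exons cover the whole span of the gene, any intron included. In SNHG16 they cover 5776 of 113259 bases. The order and the ratios therefore rest on lengths of unlike kind.

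Few reads were counted for the snoRNA genes. The table had rows for 23 snoRNA genes inside 9 of the hosts, of which 17 had no read in any library. Those 17 lie at least in part within annotated exons of their host, on the same strand. SNORD12B, SNORD30 and SNORA13 do so too and had reads. How reads that fall in both genes were counted is not given in the sources used here. A count of 0 therefore does not show that an RNA was absent. All 23 together had 142 reads over the 4 libraries, against 43739 reads on the 10 hosts. SNORD99, in SNHG12, had the most, with 17 and 6 reads in scramble and 28 and 5 in TOP2BKD. SNORD12B, in ZFAS1, had 16 and 13 reads in scramble and 13 and 12 in TOP2BKD. Within SNHG16, SNORD1B had 4 and 2 reads in scramble and 1 and 3 in TOP2BKD, and SNORD1A and SNORD1C had none. Of the 23, SNORD99 and SNORD12B passed the filter, and neither was called. SNORD99 had a log2(fold change) of 0.69 with an interval from -0.88 to 2.25 (adjusted p = 0.585). For SNORD12B it was -0.04 with an interval from -0.96 to 0.89 (adjusted p = 0.97).

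Protein-coding genes that start within 5000 bases of a host were followed in the same fit. SLC3A2, the heavy chain of amino acid transporters, starts 51 bases from SNHG1 in the opposite direction. It had 211.9 and 189.0 CPM in scramble and 189.2 and 169.6 CPM in TOP2BKD, a log2(fold change) of -0.16 (adjusted p = 0.488). Its groups overlapped, while those of SNHG1 did not. ZBTB37, 800 bases from GAS5, had 20.3 and 15.1 CPM in scramble and 15.3 and 12.1 CPM in TOP2BKD, a log2(fold change) of -0.37 (adjusted p = 0.236). ZNFX1, 248 bases from ZFAS1, had 141.3 and 135.9 CPM in scramble and 179.5 and 159.9 CPM in TOP2BKD, a log2(fold change) of 0.29 (adjusted p = 0.168). None of the 3 passed the test by edgeR after adjustment. The gene ENSG00000271793, 199 bases from SNHG5, had no read.

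A further 21 noncoding snoRNA hosts were listed, of which 19 were tested. The log2(fold change) was above 0 in 15 of them, with a median of 0.38, and 1 gene was called, SNHG4, which was higher. Over all tested genes 49.8% were above 0 and 6.66% were called higher, shares that stand beside the lists below too. At an unadjusted p below 0.05, 6 of the 19 were higher and 1 lower, where 14.5% of all tested genes were higher and 11.8% lower. SNHG4, the host of SNORA74A, had 8.85 and 9.17 CPM in scramble and 16.2 and 15.9 CPM in TOP2BKD. The replicates were nearly equal within each group. SNHG4 rose by 0.83 on the log2 scale, with a standard error of 0.15 (adjusted p = 0.00765), a value close to that of SNHG16. The other hosts ran from -0.43 upwards, and 3 of the 19 had both TOP2BKD libraries below the scramble libraries.

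Of 33 protein-coding hosts listed as TOP genes, mostly ribosomal protein and translation factor genes, 1 was called, NOP56, which was higher. Their median log2(fold change) was 0.03. NOP56 is a core protein of the C/D particle and a host of snoRNAs itself. It had 138.1 and 138.7 CPM in scramble and 192.0 and 194.6 CPM in TOP2BKD. NOP56 rose by 0.48 on the log2 scale, with a standard error of 0.12 (adjusted p = 0.0308), and the call was lost when any 1 library was left out (adjusted p from 0.135 to 0.173), while the log2(fold change) stayed between 0.46 and 0.50. The protein-coding hosts differed by replicate number, with replicate 2 above replicate 1 by a median of 0.36 in scramble and 0.38 in TOP2BKD on the log2 scale. For the 10 noncoding hosts this shift was 0.13 and 0.11, and over all tested genes it was -0.0129 and -0.0021.

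Of the 8 core proteins of the C/D and H/ACA particles, NOP56 was the only gene called, and the median was 0.02. Among 12 factors that assemble the particles, 1 was called, PIH1D1, a subunit of the R2TP chaperone complex. It had 20.5 and 19.7 CPM in scramble and 33.5 and 32.5 CPM in TOP2BKD, without overlap. PIH1D1 rose by 0.71 on the log2 scale, with a standard error of 0.12 (adjusted p = 0.00699), and the median of the list was 0.05.

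None of 16 NMD factors and none of 8 mRNAs known as NMD targets was called by edgeR with condition as the only term or by DESeq2. At an unadjusted p below 0.05, 2 NMD factors were higher and 1 was lower, and 1 NMD target was higher, beside the 14.5% and 11.8% of all tested genes given above. The medians were 0.03 and -0.01. The lists were described by counts and medians alone, and differences between lists were not tested.

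**Figure D4:**
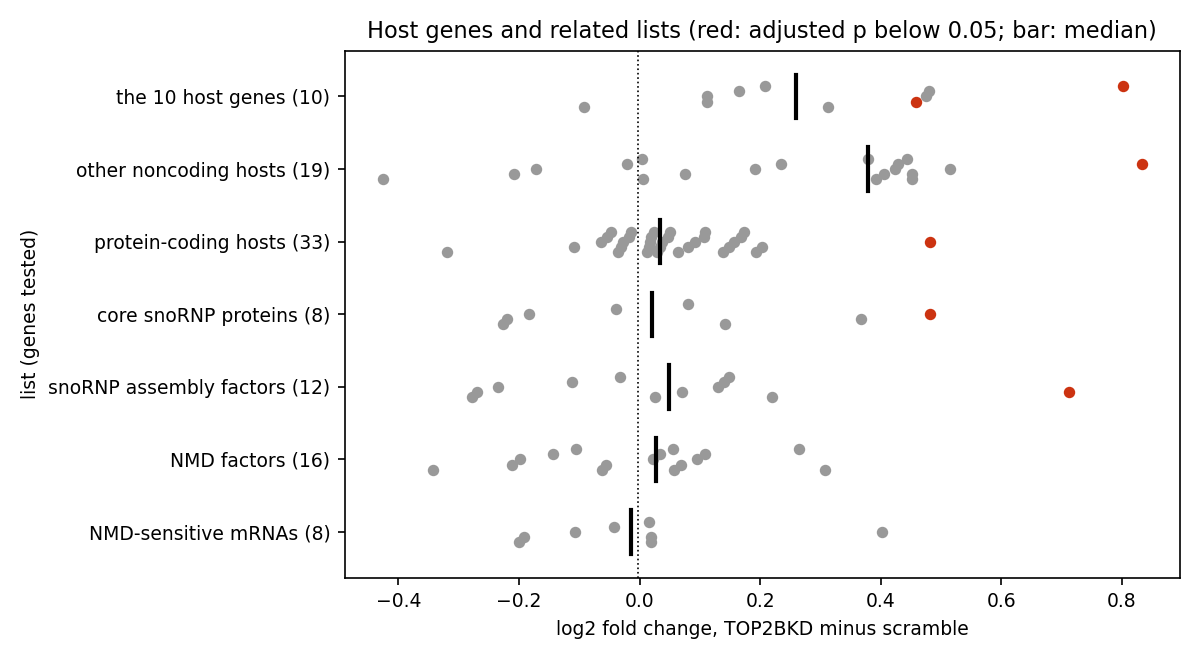
Log2 fold change (TOP2BKD minus scramble) of each tested gene of the 10 host genes and 6 related lists, with the number tested in brackets, red points for an adjusted p below 0.05, black bars for the medians and a dotted line at the median of all tested genes. The bars of the noncoding hosts stand at 0.26 and 0.38, and those of the other lists lie between -0.01 and 0.05.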

How the data were processed

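RNA-seq of 2 scramble and 2 TOP2BKD libraries was analysed. The authors checked reads with FastQC (0.11.6) and aligned them to GRCh38 with STAR (2.5.4a), which counted reads per Gencode v24 gene while mapping. The deposited values are raw counts per gene, without normalization. A second copy of the 4 columns, equal in every value, was left out. The columns are tagged as stranded and paired-end, the methods describe single-end reads, and STAR's signal tracks were set to unstranded, while a strand setting for the gene counts themselves is not given in the sources used here.

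The test was run with edgeR 4.0.16 in R 4.3.3 (glmQLFit, glmQLFTest, TMM, condition as the only term) on genes that reached 10 counts in 2 or more libraries, with Benjamini-Hochberg adjustment over all 15356 genes and a threshold of 0.05. At 20310259 to 23887013 counts per library, 1 CPM rests on 20.2 to 23.9 reads. Alternatives were the size factors of DESeq2 1.42.0 and its Wald test, library size alone, no filter (at least 1 count), a block for the replicate number, a mean of 100 counts, protein-coding genes and hosts alone, and fits without each library. The fits were tested on simulated data. Positions, symbols and exon overlaps came from GENCODE v44 (GRCh38), and hosted snoRNAs and starts from RefSeq GRCh38.p14.

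The 10 genes and the gene lists were chosen with earlier results of these data known. Named are all 10 hosts, TOP2B, each called gene of the lists, neighbours that start within 5000 bases of a host, and the hosted snoRNAs with the most reads. The unlisted snoRNAs, overlapping genes and markers named besides are descriptions.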

Additional observations from a re-analysis of the deposited data

How the results depend on the processing

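With 2 libraries per group, the calls depend on the estimate of spread. Of the 10 hosts, 2 were called as reported and 4 with no filter on counts, where SNHG12 and SNHG8 joined. With no filter, 29440 genes were tested and 2343 called, 1358 of them higher. Leaving out a library gave 1 to 2 called hosts, with 1 without scramble replicate 1, and a median log2(fold change) from 0.20 to 0.38, the latter without scramble replicate 2 (0.26 as reported). For all genes, 1665 were called as reported and 1230 to 1521 with a library left out. Of the listed genes that are no members, 3 were called as reported and 2 to 3 with a library left out. EPB41L4A-AS1 changed sign without scramble replicate 1 (-0.065) and without TOP2BKD replicate 2 (-0.0658), and reached 0.313 without scramble replicate 2. The ratio of the highest to the lowest level within a scramble library averaged 11.6 with the longest transcript and 15.4 as reported, and an alternative with RefSeq exon lengths was not run, because the table used gives genomic spans.

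The labels number the replicates alike in both groups but do not say that a number marks a shared culture or day. The differences between replicates 2 and 1 correlated between the groups with r = 0.479 across 15356 genes, which are not independent. With 2 pairs this does not establish a pairing. With the replicate block, 7 of the 10 hosts were called, all higher. Of the 15356 tested genes, 6786 were called in this setting, 3440 of them higher. The listed genes that are no members gave 38 calls. Among these 38, the other noncoding hosts gave 9 higher and 2 lower, and the protein-coding hosts 8 higher and 1 lower. Core particle proteins gave 3 higher and 3 lower, and assembly factors 2 higher and 3 lower. NOP56 is counted in both of its lists. In addition, 2 NMD factors were higher and 3 lower, and 1 NMD target was higher and 2 lower. Of the 10 hosts, SNHG15, ZFAS1 and EPB41L4A-AS1 were not called.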
